A study of Mus musculus with 87 samples.

Results

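Polycomb repressive complex 2 (PRC2) methylates lysine 27 of histone H3. Its scaffold subunit is SUZ12. The Polycomb-like proteins (PCL1 to PCL3) and JARID2 are accessory subunits that join separate forms of the complex. PCL2, the product of Mtf2, carries a winged-helix domain that binds DNA rich in unmethylated CpG dinucleotides, and in mouse embryonic stem cells PRC2 is known for occupying CpG islands at developmental genes. The regions described here were wide PCL2 peaks at which neither SUZ12 nor JARID2 had a peak. They were chosen from the authors' 3 peak lists in mm10 by 2 criteria, a width (end minus start) of at least 1000 bp and no shared base with any SUZ12 or JARID2 peak. The PCL2 list held 20003 peaks, the SUZ12 list 7796 and the JARID2 list 4991. The rule took 1117 peaks, 5.58% of the PCL2 list and 9.44% of its 11828 peaks without SUZ12 or JARID2.

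The series held 87 samples of mouse embryonic stem cells, 63 of immunoprecipitated DNA and 24 of RNA. All were grown on gelatin in 2i medium, which holds the cells in a naive state, and the ChIP cells carried the strain label 129B6F1. PCL2 was immunoprecipitated in 6 samples, with an antibody labelled Mtf2, in WT, Suz12 KO, Jarid2 KO and Pcl1-3 KO cells, in Suz12 KO cells with Flag-SUZ12 and in Suz12 KO cells with Flag-SUZ12-C2. SUZ12 was immunoprecipitated in 23 samples of 15 genotypes. These were WT, Suz12 KO, Aebp2 KO, Epop KO, Jarid2 KO, Pcl2 KO, Pcl1-3 KO, Jarid2 + Aebp2 KO, Jarid2 + Aebp2 + Epop KO, and Pcl1-3 KO combined with loss of Epop, of Jarid2, of Jarid2 and Aebp2, of Epop and Aebp2, of Epop and Jarid2, or of all 3. JARID2 was immunoprecipitated in 4 samples (WT, Suz12 KO, Jarid2 KO and Pcl1-3 KO). The peak lists named no sample, so the genotypes behind a peak, its reads and its spread over replicates were not known. Each result below is a position or a count in 1 list per protein. No height, p-value or score came with the peaks, and the lack of a SUZ12 peak says only that the authors' list held none there. Shares are given with 95% Wilson intervals, which cover counting error only, and no difference between kinds of peak was tested.

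6 promoters that lay whole inside such peaks show the sequence that PCL2 covered there. They are RefSeq windows of 300 bp, from 250 bp before to 50 bp after the transcription start, in GRCm38.p6 (the same coordinates as mm10), written 5′ to 3′ in the direction of the gene, with each CpG in capitals. Hhex had the widest peak of the 6, Smad3, Acvr1b and Smurf2 belong to the signalling group with the most genes, Crebbp is a histone acetyltransferase, and Rarb had the fewest CpGs of the 6.
Hhex: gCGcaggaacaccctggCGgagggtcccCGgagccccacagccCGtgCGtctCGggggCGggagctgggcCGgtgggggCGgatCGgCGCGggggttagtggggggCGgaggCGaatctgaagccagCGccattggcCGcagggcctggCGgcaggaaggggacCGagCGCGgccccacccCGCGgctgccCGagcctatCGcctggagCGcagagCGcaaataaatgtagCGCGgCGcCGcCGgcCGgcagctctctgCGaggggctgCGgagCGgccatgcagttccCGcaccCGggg
Smad3: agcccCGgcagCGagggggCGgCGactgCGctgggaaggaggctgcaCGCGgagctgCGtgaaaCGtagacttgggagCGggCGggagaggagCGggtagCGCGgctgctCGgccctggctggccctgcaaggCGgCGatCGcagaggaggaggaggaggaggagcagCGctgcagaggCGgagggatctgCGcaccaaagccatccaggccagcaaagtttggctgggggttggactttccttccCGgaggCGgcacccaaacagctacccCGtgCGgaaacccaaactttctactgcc
Acvr1b: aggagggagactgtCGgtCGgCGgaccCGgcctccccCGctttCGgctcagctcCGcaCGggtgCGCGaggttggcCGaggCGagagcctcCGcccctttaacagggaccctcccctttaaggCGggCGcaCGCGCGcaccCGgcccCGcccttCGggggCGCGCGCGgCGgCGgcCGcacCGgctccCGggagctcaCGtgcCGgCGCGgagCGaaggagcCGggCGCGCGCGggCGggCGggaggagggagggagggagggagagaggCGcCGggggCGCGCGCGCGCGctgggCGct
Smurf2: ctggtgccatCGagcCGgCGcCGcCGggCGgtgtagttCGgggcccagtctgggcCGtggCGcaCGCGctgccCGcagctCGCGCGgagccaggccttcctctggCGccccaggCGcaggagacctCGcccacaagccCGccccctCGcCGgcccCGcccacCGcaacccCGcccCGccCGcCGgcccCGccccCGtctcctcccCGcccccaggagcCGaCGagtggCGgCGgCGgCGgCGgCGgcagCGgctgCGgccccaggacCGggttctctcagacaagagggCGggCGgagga
Crebbp: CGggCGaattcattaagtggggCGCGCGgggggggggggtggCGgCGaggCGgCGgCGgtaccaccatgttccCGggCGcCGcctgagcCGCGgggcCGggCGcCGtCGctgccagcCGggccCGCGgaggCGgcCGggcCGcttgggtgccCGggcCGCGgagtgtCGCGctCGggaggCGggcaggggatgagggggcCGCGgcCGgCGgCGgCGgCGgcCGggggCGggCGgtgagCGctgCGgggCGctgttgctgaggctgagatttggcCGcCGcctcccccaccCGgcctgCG
Rarb: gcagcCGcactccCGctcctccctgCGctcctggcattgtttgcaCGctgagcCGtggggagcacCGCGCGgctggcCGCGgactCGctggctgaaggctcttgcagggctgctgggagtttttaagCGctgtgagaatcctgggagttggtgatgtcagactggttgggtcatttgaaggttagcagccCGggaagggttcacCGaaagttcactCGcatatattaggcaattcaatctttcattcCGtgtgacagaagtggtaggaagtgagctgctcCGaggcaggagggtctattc
The Hhex window (chr19:37434591-37434890, plus strand) held 37 CpGs, at 75.7% GC and an observed-to-expected CpG ratio of 0.878. The Smad3 window (chr9:63757945-63758244, minus strand) held 25 CpGs and the Acvr1b window (chr15:101173822-101174121, plus strand) 51. The Smurf2 window (chr11:106920666-106920965, minus strand) held 43, the Crebbp window (chr16:4213355-4213654, minus strand) 49 and the Rarb window (chr14:16575427-16575726, minus strand) 17. The 6 sequences thus spanned from a window with long runs of CpG (Acvr1b, 79.7% GC) to one with scattered CpGs (Rarb, 57.7% GC).

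Width was part of the rule and is given as a description. The selected peaks had a median width of 1179 bp, with 1078 bp and 1389 bp as quartiles and 4887 bp as the highest value, and covered 1.43 Mb, 6.50% of all bases in PCL2 peaks. Most lay close to the limit. 932 were under 1500 bp, 157 were of 1500 to 1999 bp and 28 of 2000 bp or more. At the limit itself, 186 members measured 1000 to 1049 bp, and 238 PCL2-only peaks that just missed it measured 950 to 999 bp, the widest of them 999, 999 and 998 bp. The limit therefore ran through a continuous distribution. The 10711 narrower PCL2-only peaks had a median of 475 bp. The 3859 PCL2 peaks with SUZ12 but without JARID2 had a median of 1067 bp, and the 3992 with both proteins one of 2097.5 bp.

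**Figure D1:**
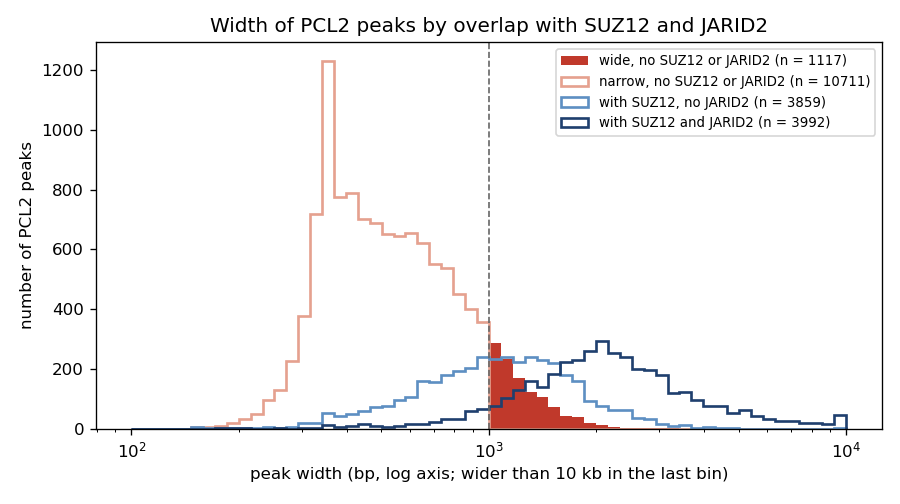
Number of PCL2 peaks (vertical axis) by width in bp (horizontal log axis) for 4 kinds of peak; the dashed line marks 1000 bp. The filled bars are the 1117 wide peaks without SUZ12 or JARID2, which form the right flank of the PCL2-only distribution, and peaks with SUZ12 and JARID2 centre near 2097.5 bp.

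Of the 10 widest peaks, 5 lay inside genes away from a start, 3 held a start, 1 lay within 1 kb of one and 1 lay outside genes. The widest (chr3:108395740-108400626, 4887 bp) lay inside Celsr2, which encodes an adhesion receptor of planar cell polarity, with a SUZ12 peak 5.23 kb away. The second (chr2:172547939-172551280, 3342 bp) lay inside Tfap2c, which encodes an AP-2 transcription factor of trophoblast and germ cells, and had no SUZ12 peak within 175 kb. A peak of 2954 bp (chr9:108955770-108958723) lay inside Col7a1, the gene of anchoring-fibril collagen, 122 kb from SUZ12. The fourth (chr1:74806064-74808878, 2815 bp) lay outside annotated genes within 10 kb of Wnt10a, which encodes a secreted Wnt ligand, with SUZ12 1.78 kb and JARID2 1.58 kb away. These 4 therefore ranged from peaks on the edge of a SUZ12 region to peaks far from any.

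The widest peak that held a transcription start was the Hhex peak (chr19:37432882-37435651, 2770 bp), 198 kb from the nearest SUZ12 peak. Hhex encodes a homeobox factor of early endoderm and blood. A 2697 bp peak (chr11:115333719-115336415) held starts of Otop3, which encodes a proton channel, and Ush1g, which encodes a scaffold protein of hair cells, 9.59 kb from SUZ12. A 2702 bp peak (chrX:101695526-101698227) held the start of the predicted gene Gm52429, 150 kb from SUZ12. The other peaks of the 10 lay inside Eml1 (chr12:108513952-108516701, 2750 bp), which encodes a microtubule-associated protein, by Pcdhga12 in the protocadherin gamma cluster (chr18:37765868-37768406, 2539 bp) and inside Dnm1, which encodes a dynamin of synaptic vesicle recycling (chr2:32335477-32337926, 2450 bp). Their distances to SUZ12 were 9.66 kb, 1.49 kb and 14.0 kb. Of the 10 widest, 4 were thus over 100 kb from any SUZ12 peak. Whether a peak lay in an exon or an intron was not analysed here.

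Gene starts were the most common place by the rule used here, under which some counted ends may not be starts. A transcription start was taken from RefSeq where its promoter window gave one; for a gene without a window, whose strand was then unknown, either end of the gene counted. By this rule 410 of the 1117 peaks (36.7%, interval 33.9 to 39.6%) held a start, and 102 more (9.13%) lay within 1 kb of one. Of the 410, 339 held a start with a known strand. A further 401 (35.9%) lay elsewhere inside a gene, and 204 (18.3%, interval 16.1 to 20.6%) outside genes. Near a start lay 45.8% of the wide PCL2-only peaks (interval 42.9 to 48.8%), 32.6% of the narrow PCL2-only peaks (31.7 to 33.5%), 56.0% of those with SUZ12 only and 68.9% of those with SUZ12 and JARID2. Width differed between these kinds of peak as well, and its part in the shares was not tested. The median width was 1205 bp for members that held a start, 1180 bp inside genes and 1149 bp outside them.

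Where the strand was known, the peaks sat mostly downstream of the start. In 408 members within 1 kb of such a start, the centre lay at a median of 215 bp downstream of it, and 71.6% of centres were downstream (interval 67.0 to 75.7%). The quartiles were 20.1 bp upstream and 415 bp downstream. Centres of narrow PCL2-only peaks had a median of 115.5 bp downstream, with 70.1% downstream, and peaks with SUZ12 and JARID2 one of 282 bp, with 74.1% downstream. Within 250 bp of the start lay 41.2% of the centres of wide PCL2-only peaks and 59.2% of those of narrow ones.

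**Figure D2:**
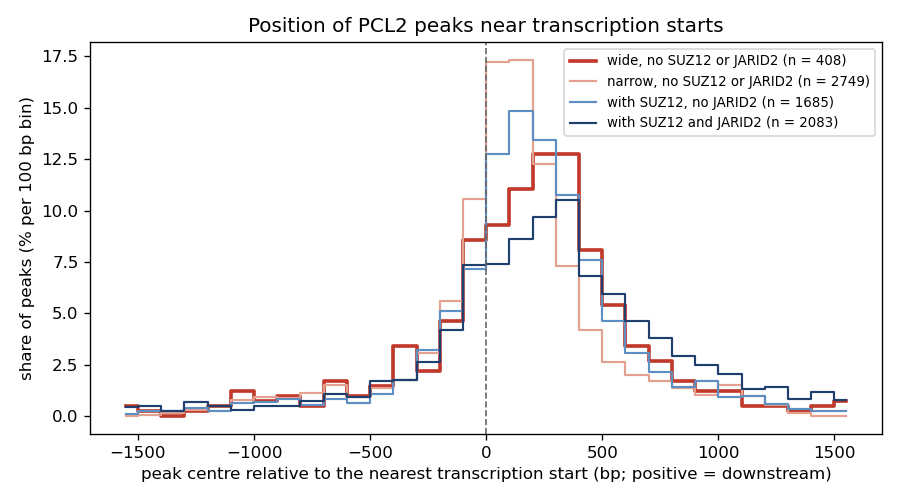
Share of peaks (% per 100 bp bin) by the distance in bp from the nearest transcription start with a known strand to the peak centre, positive downstream, for 4 kinds of PCL2 peak. The thick line is the 408 wide PCL2-only peaks, with 71.6% of centres to the right of the dashed line at the start.

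Starts on both strands lay in 48 of the 339 peaks (14.2%), a share not computed for the other kinds of peak. Some of the 48 paired a protein-coding gene with a long non-coding RNA gene, such as Notch1 with Gm35978. The widest of these with protein-coding genes on both sides held Akr7a5 and Slc66a1 (chr4:139310286-139311983, 1698 bp). Another held Bap1, which encodes the deubiquitinase of histone H2A, and Phf7 (chr14:31250230-31251676, 1447 bp). A further peak held Arpc5, which encodes a subunit of the actin-nucleating complex, and Rgl1 (chr1:152765705-152767109, 1405 bp). In all, 450 members lay near at least 1 protein-coding gene and 44 near 2 or more.

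Distance to SUZ12 differed with place. The median distance from a member to the nearest SUZ12 peak was 37.5 kb, and 77 members (6.89%) had one within 1 kb, 202 (18.1%) within 5 kb and 305 (27.3%) within 10 kb. Members that held a start had a median of 92.3 kb, with 13.4% within 10 kb (interval 10.5 to 17.1%). The 102 that only lay within 1 kb of a start had a median of 33.1 kb, with 28.4% (20.6 to 37.8%). Members inside genes had a median of 18.6 kb, with 37.9% within 10 kb (33.3 to 42.7%), and those outside genes 24.9 kb, with 33.8% (27.7 to 40.6%). Peaks that held a start were thus the farther ones in these lists. The rule, which bars overlap with SUZ12, partly fixes these distances, so they are a description. Narrow PCL2-only peaks had the same order, with medians of 77.5 kb at starts, 27.7 kb inside genes and 40.9 kb outside them. To JARID2 the members' median distance was 90.3 kb, against 95.2 kb for narrow PCL2-only peaks.

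**Figure D3:**
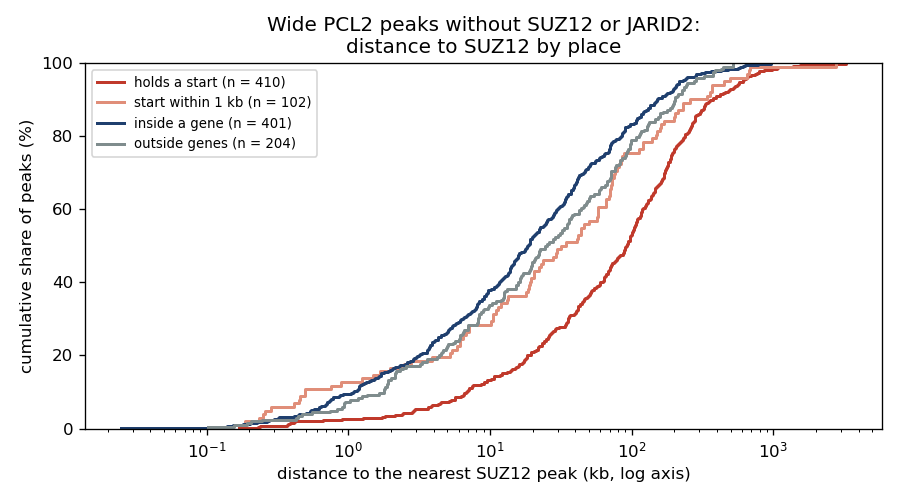
Cumulative share of wide PCL2-only peaks (%) by distance to the nearest SUZ12 peak (kb, log axis), with 1 line for each place. The line of the 410 peaks that held a start lies to the right of the others over most of the range, with a median of 92.3 kb against 18.6 kb for peaks inside genes.

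Other PCL2 peaks were close by. The nearest lay at a median of 8.44 kb, and 466 members (41.7%) had one within 5 kb. For narrow PCL2-only peaks the median was 10.5 kb, and 37.9% had one within 5 kb. Of these 466 nearest neighbours, 261 (56.0%) were narrow PCL2-only peaks, 49 (10.5%) other wide PCL2-only peaks, 73 (15.7%) peaks with SUZ12 only and 77 (16.5%) peaks with SUZ12 and JARID2. With members no more than 10 kb apart counted as a run, 81 members formed 39 runs, 3 of them of 3 peaks. The run at Col7a1 (chr9:108952870-108961067) held 5784 bp of peak, 120 kb from the nearest SUZ12 peak. The run at Baiap3, which encodes a protein of vesicle release (chr17:25243781-25254851), held 4657 bp and came within 624 bp of SUZ12. The run at Cerk, the gene of ceramide kinase (chr15:86139685-86143645), held 3591 bp, 41.1 kb from SUZ12. Hhex (chr19:37432882-37437978) had a run of 2. Another run of 2 lay at Col1a1, the gene of the main collagen of bone and skin (chr11:94932963-94939726). Only the 2084 bp peak of that run lay inside Col1a1. These runs were thus found both beside SUZ12 regions and far from them.

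Many of the genes that carried a member in their body had SUZ12 at their start. Of 364 members inside protein-coding genes, in 341 genes, 199 (54.7%, interval 49.5 to 59.7%) lay in a gene with a SUZ12 peak within 1 kb of its start, and 234 (64.3%) in a gene that a SUZ12 peak overlapped anywhere. Both are shares of members. As a share of genes, 20.6% of all 21887 protein-coding genes had a SUZ12 peak near the start. The value for narrow PCL2-only peaks was 53.1% (51.5 to 54.7%), within the members' interval. Longer genes can hold more peaks, and the host genes had a median length of 45.8 kb (62.7 kb for the narrow peaks), whose part in these shares was not tested. Along the host gene the members lay at a median of 61.2% of its length, and 85 of 278 with a known strand (30.6%, interval 25.5 to 36.2%) lay beyond 80% of it. Peaks within 1 kb of a gene start were not in this count. Beyond 80% also lay 26.2% of narrow PCL2-only peaks, 31.9% of those with SUZ12 only and 31.1% with SUZ12 and JARID2. Members anywhere in a gene, its start included, were also counted per gene. Casz1, a zinc finger factor gene, Cbfa2t3, a co-repressor gene, and Pou2f2, a POU factor gene, held 3 each and overlapped SUZ12. Lrp1, the gene of a large endocytic receptor, and Col7a1 also held 3 each and overlapped none.

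The 204 members outside genes lay at a median of 18.3 kb from the nearest protein-coding gene. 72 of them were within 10 kb of one and 20 were over 100 kb away.

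Gene groups were then read against the members. Of 21887 protein-coding genes, 491 (2.24%) had a member within 1 kb of the start, and of 12727 long non-coding RNA genes 120 (0.943%). Of the 491, 32 (6.52%) also had a SUZ12 or JARID2 peak within 1 kb of the start, a share that the rule, which bars overlap, partly fixes. Of 28 gene lists, 6 had any gene near a member. The Nodal, BMP, TGF-beta and Id list had 7 of 34 genes (20.6%), against the 2.24% of all coding genes. The same list had 7 genes (20.6%) near narrow PCL2-only peaks, against 14.1% of all coding genes, and 18 (52.9%) near a SUZ12 or JARID2 peak, against 21.0%. The retinoic acid list had 2 of 18, the chromatin remodellers 2 of 29, and the lists of CpG island binding and H3K4 methylation, the Notch pathway, and primitive streak and mesoderm 1 each. These lists were made with results from these data in view, so the counts are a description.

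Within the Nodal and BMP group the genes near a member encoded receptors, SMADs and their inhibitors, and no ligand. Against the 2.24% of all coding genes, the lack of a ligand in so short a list says little. Among receptors, Acvr1b, the type I receptor for activin and Nodal, had a peak over its start (chr15:101173096-101174280, 1185 bp, SUZ12 42.8 kb away). Bmpr2, the type II BMP receptor, had one centred 846 bp upstream of its start (chr1:59762599-59764266, 1668 bp, SUZ12 169 kb away). The Acvr1b peak thus held the start, and the Bmpr2 peak did not.

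Among signal transducers, Smad3 had a peak centred 296 bp downstream of its start (chr9:63756946-63758451, 1506 bp, SUZ12 169 kb away). Smad4, the partner shared by the receptor-regulated SMADs, had a peak over an end of the gene, whose strand was not given (chr18:73702925-73704111, 1187 bp, SUZ12 49.7 kb away). Among inhibitors, Smurf2, a ubiquitin ligase that targets SMADs and receptors, had a peak over its start (chr11:106920050-106921055, 1006 bp), and its relative Smurf1 one centred 890 bp upstream (chr5:144966004-144967436, 1433 bp). SUZ12 was 104 kb and 204 kb away. Ski, a co-repressor that binds SMADs, was the exception. Its peak (chr4:155221688-155222773, 1086 bp) held the start, and a SUZ12 peak lay 0.367 kb from it. Of the 7 genes, Ski was the only one with a SUZ12 or JARID2 peak within 1 kb of the start. With members of at least 1500 bp the list kept 2 genes, and with members of at least 2000 bp none.

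In the retinoic acid list, Rarb, the gene of a retinoic acid receptor, had a peak centred 120 bp downstream of its start (chr14:16574691-16576020, 1330 bp), 1083 kb from the nearest SUZ12 peak. Stra6, the gene of a retinol transporter, had one over its start (chr9:58129248-58130368, 1121 bp, SUZ12 65.9 kb away). Among chromatin genes, Crebbp had a peak over its start (chr16:4212763-4214631, 1869 bp, SUZ12 204 kb away), and Arid1b, the gene of a BAF remodeller subunit, one that ended within 1 kb of its start (chr17:4994020-4995055, 1036 bp, SUZ12 0.895 kb away). Notch1, the gene of a Notch receptor, had a peak centred 688 bp downstream of its start (chr2:26502232-26504035, 1804 bp, SUZ12 99.8 kb away). Meox1, a mesoderm homeobox gene, had one over an end of the gene (chr11:101893566-101894794, 1229 bp, SUZ12 41.8 kb away). Of these 6 and Bap1, only Arid1b had SUZ12 or JARID2 near its start.

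The other 22 lists had no gene with a member near the start. Among them were the 31 neural regulators, all of which had a SUZ12 or JARID2 peak there, the 28 PRC1 genes, with 12 such, the 22 naive pluripotency genes, with 3, the 32 Wnt pathway genes, with 20, and the 24 ribosomal protein genes, with 1. Against the 2.24% of all coding genes, a 0 in lists this short says little. Several genes of these lists had a member in the body only. Lef1, the Wnt-responsive transcription factor gene, had one (chr3:131203326-131205196, 1871 bp), as had Nkx2-2, a neural tube homeobox gene (chr2:147177756-147179195, 1440 bp, SUZ12 1.45 kb away), and Dnmt3a, a DNA methyltransferase gene (chr12:3829163-3830195, 1033 bp). Dmrt1, a gonadal transcription factor gene, and Rnf43, the gene of a ubiquitin ligase that removes Wnt receptors, had 2 each. Of the 18 listed genes with a member in the body only, 15 had a SUZ12 or JARID2 peak near the start, these 5 among them, and 3 (Ccnd1, Tfap2c and Col1a1) had none. Of all coding genes 21.0% had such a peak. In the lists these genes came from, the share ran from 20% (DNA methylation and TET enzymes) to 100% (neural regulators). Whether the count differs from these shares was not tested.

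Of the genes knocked out in the series or encoding PRC2 subunits, none of Suz12, Phf1, Mtf2, Phf19, Jarid2, Aebp2 and Epop had a wide PCL2-only peak near its start. Jarid2, Aebp2 and Epop, which encode accessory subunits, had a narrow one, as had 14.1% of all coding genes, and Phf19, which encodes PCL3, had a SUZ12 or JARID2 peak.

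**Figure D4:**
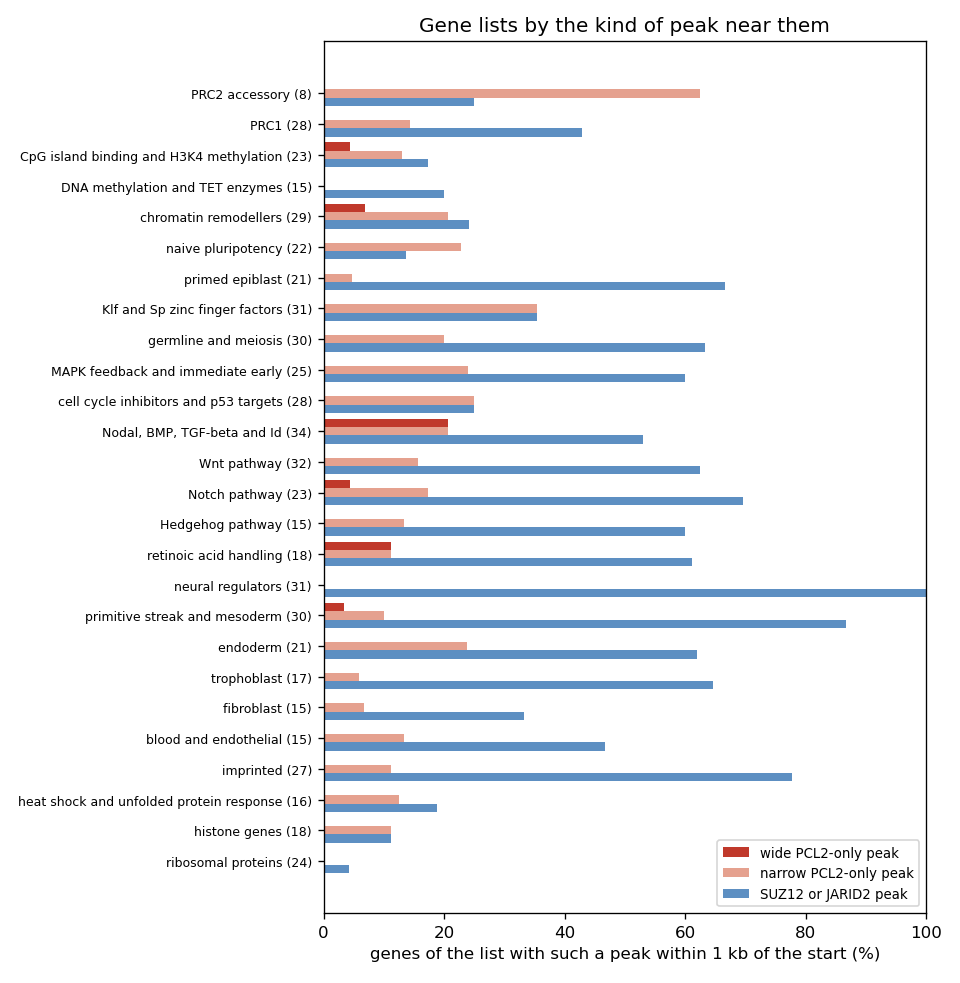
Share of each gene list (%, list size in brackets) with a wide PCL2-only peak, a narrow PCL2-only peak, or a SUZ12 or JARID2 peak within 1 kb of the start; 2 lists without any of these are left out. Wide PCL2-only peaks were near genes of 6 lists, with 20.6% for the Nodal, BMP, TGF-beta and Id list, and SUZ12 or JARID2 peaks were near 100% of the neural regulators.

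Promoters inside the members were rich in CpG. The 239 protein-coding promoter windows that lay whole inside a member, in 222 peaks, had a median GC content of 67.3% and a median of 26 CpGs per 300 bp, with quartiles of 17.5 and 37 and a range of 1 to 63. By a limit of at least 50% GC and an observed-to-expected CpG ratio of at least 0.6, 79.1% were CpG-rich (interval 73.5 to 83.8%). The shares were 78.8% of 529 promoters in narrow PCL2-only peaks, 80.5% of 964 in peaks with SUZ12 only and 72.6% of 1607 in peaks with SUZ12 and JARID2. Of 11434 promoters with no PCL2, SUZ12 or JARID2 peak near the gene, 33.5% were CpG-rich, and their median was 6 CpGs. The members' promoters thus held more CpG than promoters without a peak in these counts. The interval of their CpG-rich share overlapped those of narrow PCL2-only peaks and of peaks with SUZ12 only. It also overlapped that of peaks with SUZ12 and JARID2 (70.3 to 74.7%). DNA methylation was not measured in these files.

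**Figure D5:**
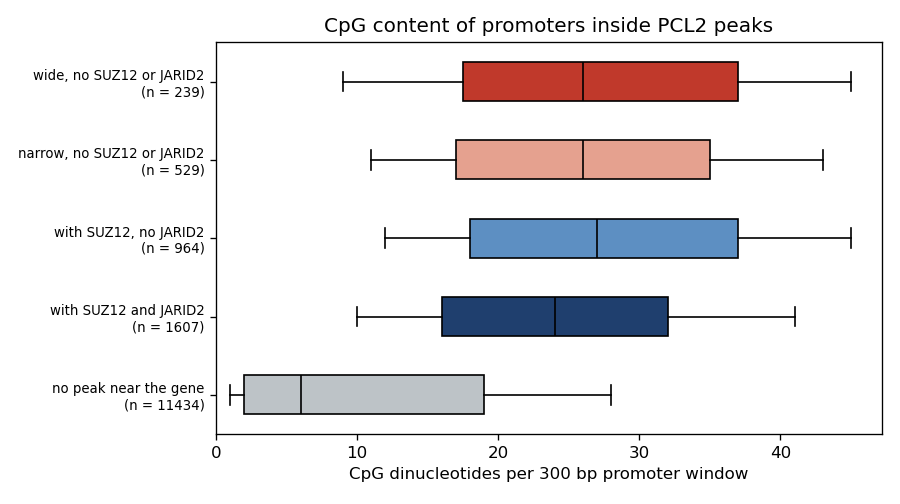
CpG dinucleotides per 300 bp promoter window in 4 kinds of PCL2 peak and in genes with no peak nearby; boxes span the quartiles with the median as a line, and whiskers reach the 10th and 90th percentiles. The median was 26 in wide PCL2-only peaks, 26 in narrow ones, 27 with SUZ12 only, 24 with SUZ12 and JARID2 and 6 without a peak.

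Short motifs were counted in the same windows on both strands, with overlaps with other motifs allowed. GGGCGG, the box bound by Sp and Klf factors, was in 76.2% of the members' promoters and 46.3% of all 17492. The other kinds of PCL2 peak had similar shares, 75.2% in narrow PCL2-only peaks, 78.8% with SUZ12 only and 71.9% with SUZ12 and JARID2. GCGGGCG was in 31.4% (interval 25.8 to 37.5%), against 13.8% of all, 27.4% in narrow PCL2-only peaks and 34.5% in peaks with SUZ12 and JARID2. CGCG was in 84.9%, against 49.4% of all, 81.7% in narrow PCL2-only peaks, 83.4% with SUZ12 only and 81.8% with SUZ12 and JARID2. CCAAT was in 31.0%, against 39.0% of all, 30.1% in narrow PCL2-only peaks, 28.1% with SUZ12 only and 30.6% with SUZ12 and JARID2. TATAAA was in 7.53% (interval 4.82 to 11.6%), against 13.3% of all and 3.59% in narrow PCL2-only peaks (2.31 to 5.54%). The E-box CACGTG was in 10.5% (interval 7.19 to 15.0%), against 7.90% of all, and GCG in 99.6%, against 84.2%. GCG was also in 99.8% in narrow PCL2-only peaks and 99.5% with SUZ12 and JARID2. The CRE motif TGACGTCA was in 1.67%, against 2.34% of all, and the NRF1 motif in 1.26%, against 1.32%, with 4 and 3 matching promoters in members. The windows in members also differed from all promoters in CpG content. Among CpG-rich promoters alone, TATAAA was in 5.29% in members (2.9 to 9.46%) and 4.75% with no peak near the gene (4.12 to 5.47%). CACGTG was in 12.2% of both. GGGCGG was in 85.7% of these promoters in members, against 72.3% with no peak, and CGCG in 96.3%, against 86.96%. The other kinds of PCL2 peak were similar. GGGCGG was in 81.1% in narrow PCL2-only peaks, 84.7% with SUZ12 only and 81.4% with SUZ12 and JARID2. For CGCG these shares were 92.6%, 94.3% and 94.8%. CCAAT was in 30.2% in members, against 42.3% with no peak, 29.7% in narrow PCL2-only peaks, 26.4% with SUZ12 only and 28.0% with SUZ12 and JARID2. The part of CpG content that remained within the CpG-rich promoters was not tested.

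CCGGAAG, the core bound by ETS factors, took different shares in the kinds of PCL2 peak. It was in 36 of the 239 promoters (15.1%, interval 11.1 to 20.1%), which lay in 31 peaks, some holding a pair of overlapping windows. It was in 15.1% of promoters in narrow PCL2-only peaks, 9.02% in peaks with SUZ12 only (7.38 to 11.0%), 3.86% in peaks with SUZ12 and JARID2 (3.02 to 4.92%), 12.6% with no peak near the gene (12.0 to 13.2%) and 11.9% of all 17492. Among CpG-rich promoters alone the shares were 16.9% in members (12.3 to 22.9%), 17.0% in narrow PCL2-only peaks, 10.3% with SUZ12 only, 3.95% with SUZ12 and JARID2 and 28.2% with no peak near the gene (26.8 to 29.6%). Against genes with no peak, the members' share was thus lower among CpG-rich promoters, while over all promoters the intervals overlapped. In members of at least 1500 bp the share over all promoters was 7.69% (3.03 to 18.2%), an interval that overlaps that of all members. A match is a description of the letters and not a bound site.

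The 2 widest members with the motif and 1 promoter with a pair of matches are shown with the motif, on either strand, in capitals.
Mark3: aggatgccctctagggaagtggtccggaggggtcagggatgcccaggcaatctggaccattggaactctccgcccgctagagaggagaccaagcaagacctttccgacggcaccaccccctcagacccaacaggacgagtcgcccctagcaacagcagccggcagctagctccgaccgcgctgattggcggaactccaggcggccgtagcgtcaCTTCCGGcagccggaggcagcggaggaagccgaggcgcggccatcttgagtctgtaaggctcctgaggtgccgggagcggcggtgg
Slc37a4: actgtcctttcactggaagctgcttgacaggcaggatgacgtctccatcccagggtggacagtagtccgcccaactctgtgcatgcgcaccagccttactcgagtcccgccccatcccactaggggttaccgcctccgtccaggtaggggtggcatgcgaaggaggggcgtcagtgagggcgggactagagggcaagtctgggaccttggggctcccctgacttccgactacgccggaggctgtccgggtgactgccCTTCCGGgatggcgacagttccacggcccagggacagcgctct
Gba2: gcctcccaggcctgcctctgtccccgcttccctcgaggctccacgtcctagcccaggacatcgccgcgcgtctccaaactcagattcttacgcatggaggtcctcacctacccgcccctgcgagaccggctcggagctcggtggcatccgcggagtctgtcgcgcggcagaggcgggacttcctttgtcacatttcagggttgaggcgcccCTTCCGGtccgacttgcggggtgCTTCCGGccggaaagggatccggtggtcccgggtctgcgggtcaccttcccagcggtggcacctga
The Mark3 window (chr12:111574260-111574559, plus strand, gene of a polarity kinase) lay in a peak of 1782 bp and held 24 CpGs. The Slc37a4 window (chr9:44396849-44397148, plus strand, gene of the glucose-6-phosphate transporter) lay in a peak of 1685 bp and held 18. The Gba2 window (chr4:43578815-43579114, minus strand, gene of a non-lysosomal glucosylceramidase) lay in a peak of 1173 bp, which also held the start of Rgp1 on the other strand, and held 29 CpGs and 2 matches. The 6 promoters printed above held no CCGGAAG.

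4 miRNA hairpins of 1005 with coordinates lay inside members, in 1.43 Mb of peak. The 10711 narrow PCL2-only peaks held 15 in 5.58 Mb, the 3859 peaks with SUZ12 only 17 in 4.51 Mb and the 3992 peaks with SUZ12 and JARID2 34 in 10.1 Mb. The hairpins inside coding genes with both arms listed are shown, as mature RNA with the seed (bases 2 to 8) in capitals.
mmu-miR-152-3p: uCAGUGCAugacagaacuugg
mmu-miR-152-5p: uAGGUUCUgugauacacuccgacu
mmu-miR-12181-5p: uUGAGGGUgcauaaggacugga
mmu-miR-12181-3p: uCCAGGCCucuugcucucuca
The Mir152 hairpin (chr11:96850393-96850465, plus strand) lay in Copz2, which encodes a coatomer subunit, in a peak of 1004 bp with SUZ12 24.7 kb away. The Mir12181 hairpin (chr11:77467518-77467574, plus strand) lay in Coro6, a coronin gene, in a peak of 1396 bp with SUZ12 2.62 kb away. The other two were Mir3968 in Trim80 and Mir6240 outside coding genes. No 2 of the printed arms shared a seed.

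Chromosome 11 held the most members, 119, or 7.40 per 100 protein-coding genes, and chromosome 10 the most per gene, 7.89 per 100. Chromosome X held 11 (1.14 per 100) and chromosome Y none. As a share of the PCL2 peaks on each chromosome, the members made up 7.31% on chromosome 11, 8.10% on chromosome 10 and 4.66% on chromosome X, where the whole list held 236 PCL2 peaks.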

How the data were processed

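The authors deposited 1 peak list each for PCL2, SUZ12 and JARID2, whose values are positions in base pairs and so of no other unit. Per the submitters' processing notes, reads were trimmed with Trimmomatic and aligned to mm10 with Bowtie2. Neither the peak caller nor its threshold, pooling or source genotypes is given in the sources used here. From these positions, overlap (at least 1 bp), width, distances, places and counts were computed with Python 3.11.15, pandas 2.3.3, NumPy 2.4.6 and SciPy 1.17.1, and checked on simulated intervals. Gene positions, promoters and miRNAs came from RefSeq (GRCm38.p6). Promoter windows covered 79.9% of 21887 protein-coding genes, and 592 of 595 list symbols matched.

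The RNA counts were not used here, because no table at hand paired their gene IDs with symbols. The 8 planned RNA comparisons were therefore not run, and no depth is given. Genes named are those at the 10 widest members, genes of the lists near a member and the targeted genes. The planned order by expression could not be applied, and the genes of shared starts, runs, hosts, motifs and miRNAs were chosen after their values were seen. The members and lists were chosen with earlier results of these data known.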

Additional observations from a re-analysis of the deposited data

How the results depend on the processing

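The rule's width limit moved the counts most. With members of at least 1500 bp (chosen after seeing the data) there were 185, with 88 coding genes near them and CCGGAAG in 7.69% of promoters. With at least 2000 bp there were 28, with 12 coding genes, 39.3% near a start and CCGGAAG in 0 of their few promoters, an interval that reaches 43.4%. Without members within 5 kb of SUZ12 or JARID2, 904 remained and 50.8% were near a start. Allowing SUZ12 and JARID2 to cover under 10% of the peak gave 1124. Under 2 gene rules chosen after seeing the data, 62.7% of members had a start within 5 kb, and 80.8% overlapped a gene, with 839 coding genes overlapped. The CpG-rich share stayed between 78.8% and 80.8% under the 4 alternatives run on it. With at least 2000 bp its interval was wide (37.6 to 96.4%), and with at least 1500 bp it was 68.1 to 89.2%. No paired analysis was possible because the results come from peak lists without replicates or a test. The alternatives for RNA were not run. Peak depth was unknown, so weak SUZ12 or JARID2 signal below the authors' threshold could not be told from none.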
